A study of Caenorhabditis elegans with 3 samples.

Results

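The regions described here are the 95 unique intervals listed for SMX-exposed F11 nematodes against the control, out of 734 intervals listed in all for the series. They were taken from 103 table rows by collapsing rows with the same chromosome, start and end. Trimethylation of lysine 4 on histone H3 (H3K4me3) was mapped by chromatin immunoprecipitation and sequencing in whole wild-type Caenorhabditis elegans. The F11 group came from a line kept on plates with sulfamethoxazole (SMX, given in K-medium) for 11 generations, with 6 days of exposure in each. The control came from plates with K-medium and no drug, and its H3K4me3 antibody is labelled as the same. Both groups fed on Escherichia coli OP50 at 20 °C, and both were fixed in 2% formaldehyde for 30 min. The sources used here do not give the SMX concentration, the stage at collection or the generation of the control. Exposure and generations in culture therefore cannot be told apart. Another group, F14', is unexposed progeny of the same line and is used only for values set side by side.

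H3K4me3 is laid down by COMPASS-type methyltransferase complexes and is known as a mark that collects around the starts of transcribed genes. In C. elegans many messenger RNAs receive a spliced leader in place of their first transcribed bases, so an annotated start can lie downstream of the place where transcription begins. H3K4 methylation factors such as ash-2 and set-2 are known in this species for effects on lifespan and the germline that pass between generations. SMX is a sulfonamide that blocks folate synthesis in bacteria.

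Each group had 1 library, so no difference has a replicate check and no p-value was computed across intervals. The caller lists an interval only where F11 exceeded its background, so a fold above 1 is a condition of entry and not a finding. For 94 of the 95 intervals the deposited false discovery rate was 100%. In whole worms, fewer cells that carry a mark and less mark per cell cannot be told apart. Total depth is unknown for both libraries. The 95 intervals held 169447 tags, which are aligned reads counted inside an interval, over 226756 bp. Confidence intervals in the text cover counting error only, since reads copied by PCR are not independent molecules.

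Tag density separated a small dense group from a large body of shallow intervals. Density is given as tags per kb of the interval. The median was 314 tags per kb, with quartiles of 294 and 401, a lowest value of 260.1 at the piRNA gene 21ur-12347 and a highest of 6594 at C34E11.9. Under 350 tags per kb lay 61 of 95 intervals (64.2%, exact Clopper-Pearson 95% interval 53.7 to 73.8%). At least 1000 tags per kb were found in 8 (8.42%, 3.71 to 15.9%), and no interval lay between 827 and 1538. These 8 held 93343 of the 169447 tags, or 55.1%. Both density limits were chosen after the values were seen.

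**Figure D1:**
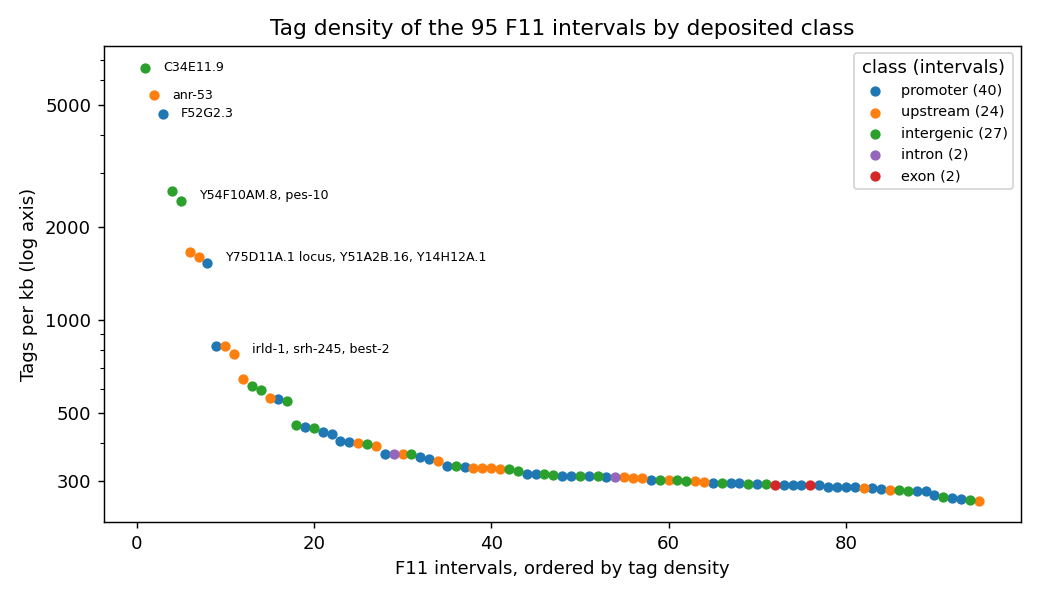
Tag density of each F11 interval in tags per kb (log axis), ordered from highest to lowest, with 1 point per interval coloured by the deposited class. The 8 densest intervals lie at 1538 or more, and 61 lie under 350.

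The densest interval was centred 3966 bp past the end of C34E11.9, a noncoding RNA gene (chromosome X, 11785187 to 11789965, build ce10). It held 31515 tags over 4779 bp, or 6594 tags per kb (exact Poisson 95% interval 6522 to 6668), and alone took 18.6% of all tags in the intervals. Its deposited fold was 4.39, and it was the 1 interval with a false discovery rate (FDR) of 0%, against 100% for the other 94. Its nearest neighbour on the chromosome was 6732 kb away.

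The second interval lay before anr-53, an antisense RNA gene (chromosome III, 1299258 to 1303483). Its 22629 tags gave 5355 tags per kb (5285 to 5425) at a fold of 3.71. The third, before F52G2.3 (chromosome IV, 13548903 to 13550025), was short, with 5247 tags in 1123 bp, or 4672 tags per kb (4547 to 4800). Its fold was higher, at 5.78. The 3 intervals with the most tags, at C34E11.9, anr-53 and Y54F10AM.8, together held 40.7% of the tags.

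The remaining dense intervals were spread over 4 chromosomes. That of Y54F10AM.8 (chromosome III, 2496583 to 2502208) had 2623 tags per kb (2581 to 2665) with a fold of only 2.14. That of pes-10 (chromosome II, 12843265 to 12846430) had 2443 tags per kb (2388 to 2498) and a fold of 5.08. The gene pes-10 is known for transcription in the early embryo and lends its promoter to reporter constructs. The locus of Y75D11A.1, ZC190.9 and linc-64 (chromosome X, 1751834 to 1755524) had 1660 tags per kb (1618 to 1702). It was the 1 interval to which more than 1 gene was assigned. Y51A2B.16 (chromosome V, 18399865 to 18402121) had 1603 (1552 to 1657), and Y14H12A.1 (chromosome II, 3994178 to 3995295) had 1538 (1466 to 1612). None of the 8 dense intervals held the start of its assigned gene (0 to 36.9%), against 15 of all 95 (15.8%). Of the 8, 1 touched that gene at all (12.5%, 0.316 to 52.7%), against 30 of all 95 (31.6%). Both 95% intervals held the share over all 95. By class, 2 of the 8 were promoter, 3 upstream and 3 intergenic intervals.

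Between 500 and 1000 tags per kb lay 9 intervals, among them 2 at chemoreceptor genes and 2 at channel genes. At irld-1, which encodes a protein with receptor L domains like those of the insulin and EGF receptors, 3501 tags gave 827 tags per kb (799.7 to 855). The chemoreceptor gene srh-245 had 824 tags per kb (773 to 878), with a score of 38.9. The bestrophin channel gene best-2 had 779 (728 to 833), and the DEG/ENaC channel gene acd-5 had 643 (613 to 673). The histone acetyltransferase gene mys-2, of the MYST family, had 613 (569 to 659), and the chemoreceptor gene srj-9 had 594 (576 to 612). Y73B6BL.47 (560 tags per kb), T26H5.8 (555) and the neuropeptide gene nlp-38 (548) completed this range. The Poisson intervals overlapped between each neighbouring pair in this order except best-2 and acd-5, so the order within those pairs is not resolved.

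Fold and density did not pick out the same intervals. The deposited fold had a median of 2.02, and 53.7% of the 95 intervals reached a fold of 2, a share that the caller's own comparison sets. Of the 10 intervals with the highest density, 5 were also among the 10 with the highest fold, namely C34E11.9, F52G2.3, pes-10, Y14H12A.1 and srh-245. Over the 95 intervals the rank correlation of fold with density was 0.67 (Spearman; Pearson 0.47). Both values come from the same tags of the same library, so this is a description.

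Several intervals had a high fold on few tags. A fold of at least 3 was listed for 20 intervals, and 9 of these lay under 400 tags per kb. Y14H12A.1 had the highest fold, at 8.46 with 1719 tags. By contrast gmeb-3, whose product resembles the glucocorticoid modulatory element binding proteins of mammals, reached a fold of 4.79 on 542 tags (334 tags per kb). T13G4.1 reached 4.49 on 389 tags (367 tags per kb). Y71A12B.12 reached 4.34 on 719 tags (361 tags per kb). The C-type lectin gene clec-135, from a family of sugar-binding proteins with members induced by infection, reached 4.63 on 482 tags (402 tags per kb). The others under 400 tags per kb were ZK993.4 (fold 3.65), age-1 (3.53), pes-5 (3.51), stim-1 (3.35), M01E5.1 (3.29) and Y73B6A.1 (3.11).

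The reverse was also seen. At least 400 tags per kb came with a fold under 2 at T26H5.8 (555 tags per kb, fold 1.92), T06F4.1 (446, 1.90), W07G1.1 (436, 1.95) and Y43F8C.5 (428, 1.99). The control's tags in these intervals are not listed, so the part of the fold that comes from the control was not tested.

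**Figure D2:**
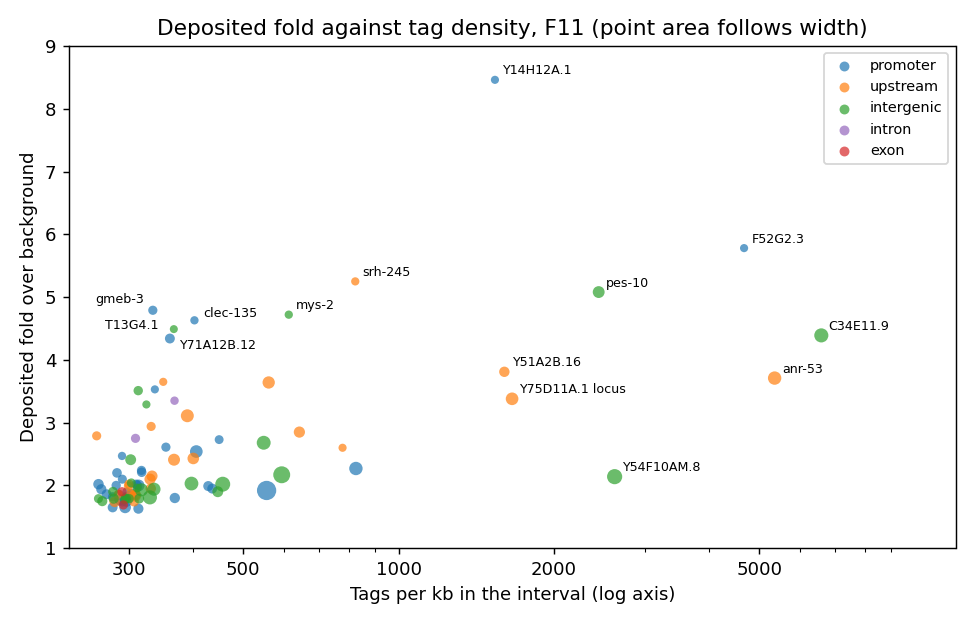
Deposited fold over background (linear axis) against tags per kb (log axis) for the 95 F11 intervals, coloured by class, with point area rising with width. Y14H12A.1 stands highest in fold at 8.46, C34E11.9 highest in density at 6594, and most intervals crowd below a fold of 3 and 400 tags per kb.

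Widths ran from 1060 bp at T13G4.1 to 9547 bp at T26H5.8, with a median of 1978 bp and quartiles of 1593 and 2751. The 5 widest were T26H5.8, srj-9 (7192 bp), Y54F10AM.8 (5626 bp), Y64H9A.2 (5453 bp) and snx-1 (4787 bp), a sorting nexin gene of the retromer. The 5 narrowest were T13G4.1, Y14H12A.1 and best-2 (both 1118 bp), and age-1 and M01E5.1 (both 1121 bp). At 4000 bp or more stood 11 intervals, of which 8 were classed as intergenic and 2 as promoter. These width limits, too, were chosen with the values in view. The median fold of the wide intervals was 2.14 and their median density 555 tags per kb. The 11 intervals under 1200 bp had a median fold of 4.49 and a median density of 402 tags per kb. The fold ranges of the narrow (2.47 to 8.46) and wide (1.81 to 4.39) intervals overlapped, and the rank correlation of width with fold over all 95 was weak (Spearman -0.14). Summits lay in the middle 50% of the width at 72 of 95 intervals.

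By the deposited class, 40 intervals were promoter, 24 upstream, 27 intergenic, 2 intron and 2 exon. These names follow position rather than a test of promoter function. All 40 intervals centred within 2 kb of an assigned start, on either side, were called promoter. All 24 upstream intervals were centred more than 2 kb before the start. All 27 intergenic intervals were centred past the far end of the assigned gene. Of the 40 promoter intervals, 18 were centred before the start, 16 inside the gene and 6 past its end. The last 6 were Y14H12A.1, gmeb-3, 21ur-14095, C24H11.13, Y57A10B.7 and F58A4.22.

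Median density differed little between classes. The medians were 307 tags per kb for promoter, 332 for upstream, 318 for intergenic, 339 for intron and 292 for exon intervals. The promoter (262 to 4672), upstream (260.1 to 5355) and intergenic (262 to 6594) ranges overlapped almost wholly and held those of the 2 intron and 2 exon intervals. Median fold was 2.42 in upstream intervals, against 1.99 in promoter and 1.96 in intergenic ones, and the ranges of these 3 classes overlapped.

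Few intervals sat on the start of the assigned gene. By the labels, the control is itself an H3K4me3 library. The list therefore holds regions where F11 exceeded its background and does not map where the mark lies. The median distance from the assigned start to the interval centre was 2423 bp, and 6 of 95 centres lay within 500 bp of that start (6.32%, 2.35 to 13.2%). The interval itself held the assigned start at 15 of 95 (15.8%, 9.12 to 24.7%). With the starts of all genes listed in either table counted, 21 of 95 held a start (22.1%). Starts of genes listed for neither F11 nor F14' were not looked at, so intervals on an unlisted start are not counted. The F14' table had 229 of 639 (35.8%, 32.1 to 39.7%), but it lists several genes at more of its intervals, so the shares were not tested against each other. In total 30 of 95 F11 intervals touched the assigned gene.

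The 15 intervals with a start were all of promoter class, a class that follows from a centre within 2 kb of the start. Their density had a median of 297 tags per kb and ran from 262 at fbxb-5 to 827 at irld-1. The 80 intervals without the start had a close median, 316 tags per kb, and ran from 260.1 to 6594. Fold at the 15 ran from 1.63 at Y82E9BR.8 to 2.61 at tos-1, with a median of 1.94, against 2.02 at the 80. None of the 20 intervals with a fold of at least 3 was among the 15. The nearest centres were those of the trypsin-like protease gene try-9 (-130 bp), the chemoreceptor gene srh-292 (168 bp), linc-113 (170 bp), the F-box gene fbxb-54 (202 bp) and the chemoreceptor gene srh-105 (352 bp). A negative distance lies before the start. Their densities were 285, 318, 291, 295 and 297 tags per kb in that order. The other 10 were irld-1, T26H5.8, Y43F8C.5, Y9D1A.1, tos-1, Y82E9BR.8, CE7X_3.3, F16G10.11, sra-20 and fbxb-5.

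At the other extreme, 15 of 95 centres were over 5 kb from the assigned start. The 5 farthest were cutl-26, a cuticlin-like gene (11040 bp), mys-2 (9559 bp), ZK993.4 (-9072 bp), snx-1 (9030 bp) and Y20C6A.1 (8824 bp). Centres past the end of the assigned gene numbered 33 (34.7%, 25.3 to 45.2%), at a median of 2138 bp beyond that end. The centre of the mys-2 interval lay 1467 bp beyond the end and that of the gmeb-3 interval 76.5 bp. Such intervals follow the gene whose name they carry. Each gene name here is the authors' assignment by position. Of the 53 F11 intervals that overlapped an F14' interval, 42 shared an assigned gene with it and 43 shared its class. The srh-245 interval, upstream at -2409 bp, overlaps an F14' interval called promoter of srh-246 at -535 bp. That of pes-10 overlaps one assigned to lgc-35. Family counts, classes and distances rest on these assignments.

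**Figure D3:**
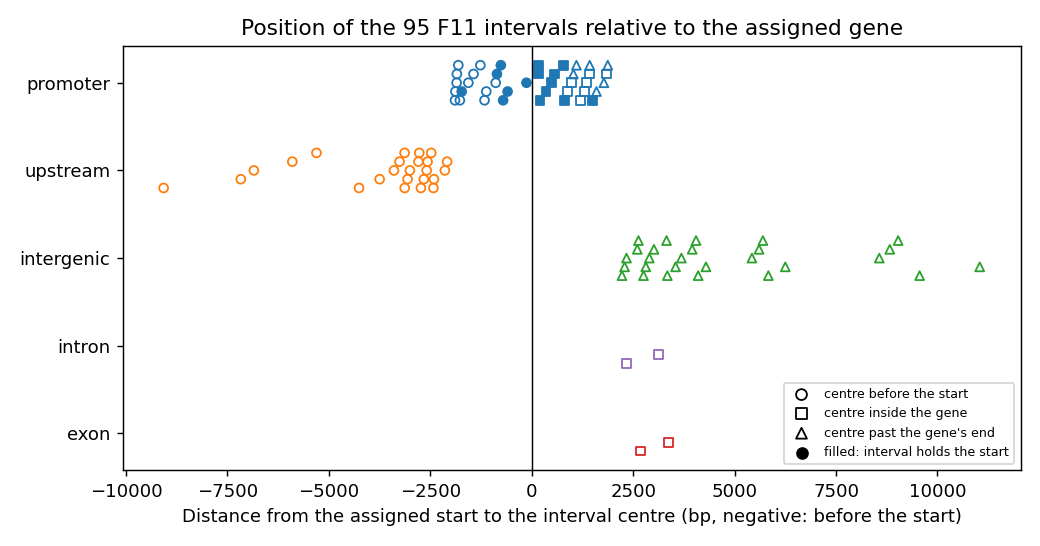
Distance in bp from the assigned start to the centre of each F11 interval (negative before the start), by deposited class; circles are centres before the start, squares inside the gene and triangles past its end, and filled symbols are intervals that hold the start. The 15 filled symbols all stand in the promoter row, and the 27 intergenic points all lie past the gene's end.

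Inside genes, the intron intervals were those of stim-1 and oac-39. The stim-1 interval (chromosome III, 414933 to 416187) held 462 tags (368 tags per kb, fold 3.35). This gene encodes the calcium sensor of the endoplasmic reticulum that opens store-operated channels. The oac-39 interval, at an O-acyltransferase-like gene, held 498 tags (309 tags per kb, fold 2.75). The exon intervals were those of K10B4.1 (480 tags, 293 tags per kb, fold 1.69) and C06C6.7 (473 tags, 291 tags per kb, fold 1.90).

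The table named 94 genes, and 90 of them matched a RefSeq gene table of 46926 genes, so 0.192% of all genes had an F11 interval. By type, 66 were protein-coding, 8 noncoding RNA, 7 piRNA, 4 long noncoding RNA and 4 pseudogenes, and 1 was antisense RNA. These were 0.33% of protein-coding genes and 0.0456% of piRNA genes. Intervals at protein-coding genes had a median of 330 tags per kb (262 to 4672), and those at noncoding RNA genes a median of 292 (262 to 6594).

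Sensory receptors were the largest family by count. Nematode chemoreceptors are membrane receptors, mostly of chemosensory neurons, and 8 of 1628 members had an interval (0.491%). Besides srh-245 and srj-9 these were srh-292 (318 tags per kb, fold 2.24), srt-38 (309, 1.85), srsx-1 (304, 1.86), srh-105 (297, 1.90), srz-44 (267, 1.75) and sra-20 (266, 1.94). The 6 intervals after srh-245 and srj-9 all lay under 350 tags per kb. In 4 of 8 the class was promoter, and 3 of 8 held the start.

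Channel and calcium entry genes, taken by a few name prefixes and gene names, had 4 of 138 members (2.90%). None had an interval on its start or in promoter class. The best-2 and acd-5 intervals lay 2477 and 3060 bp before the start. Their folds were 2.60 and 2.85. The stim-1 interval was in an intron, and that of the ligand-gated channel gene lgc-30 lay 6848 bp before the start with 282 tags per kb and a fold of 1.74. Neuropeptide and insulin-like peptide genes had 1 of 149 members, nlp-38. Its interval (2530 tags, fold 2.68) was centred 4049 bp past the start and 2758 bp past the gene's end.

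F-box, MATH and BTB genes, whose products serve as adaptors for protein degradation, had 4 of 483 members (0.828%). All were shallow, namely math-18 (297 tags per kb, fold 1.79), fbxb-54 (295, 1.65), fbxc-30 (281, 1.79) and fbxb-5 (262, 2.02). C-type lectins had 2 of 264 (0.758%), clec-135 and clec-70 (287 tags per kb, fold 1.86). Only the clec-135 interval was of promoter class.

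Among regulators, the insulin and lifespan list had 1 of 10 members. This was age-1, the catalytic subunit of PI3-kinase downstream of the insulin receptor (chromosome II, 11527550 to 11528670). Its interval held 378 tags (337 tags per kb, fold 3.53), centred 1120 bp before the start. The interval had a score (-10 times log10 of p) of 58.1 and a deposited FDR of 100%. The receptor gene daf-2, the kinases pdk-1, akt-1 and akt-2 and the transcription factor daf-16 had none. Chromatin modifiers had 1 of 58, mys-2. Nuclear hormone receptors had 1 of 283, nhr-259 (312 tags per kb, fold 1.96), centred 5427 bp past the start and 4801.5 bp past the gene's end. Homeobox genes with the name prefix ceh had 0 of 65, and those with other names were not looked at. Genes for xenobiotic detoxification (cytochromes P450, conjugating enzymes and export pumps, by the prefixes cyp, gst, ugt, pgp, haf and mrp) had 0 of 222.

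Genes for small and long noncoding RNAs were included. The piRNA genes, whose short products guide the Argonaute PRG-1 in the germline, had 7 of 15363 members. Their densities stood close together, from 260.1 tags per kb at 21ur-12347 to 318 at 21ur-11334, with folds of 1.87 to 2.79. Of these 7 intervals, 3 were of promoter class and none held the start of its assigned gene. Other noncoding genes were taken by the name prefixes anr, linc, rrn, mir and tts. This list had 4 of 505 members, anr-53, linc-64, linc-98 (331 tags per kb, fold 1.95) and linc-113 (291, 1.77). Noncoding genes with other names, such as C34E11.9, were outside it. The gene linc-64 was named at both the dense interval on chromosome X and a shallow one of 295 tags per kb that began 12.8 kb farther along.

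Over all genes of the reference, piRNA genes included, the share was 0.192%, and over protein-coding genes it was 0.33%. The list shares stood on both sides of both values. They ran from 0% for homeobox and detoxification genes and 0.0456% for piRNA genes to 2.90% for channel genes. The insulin and lifespan list stood at 10%, where 1 gene of 10 makes up the share. Lists were set by name prefix or gene name, so genes of the same kind with other names were not counted. The counts behind the shares are of 0 to 8 genes and were not tested, so nothing particular to a list is drawn from them. The 38 intervals not named by the naming rule ran from 262 to 560 tags per kb with a median of 308. Their folds ran from 1.63 to 3.64 with a median of 1.92, and 21 were of promoter class.

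Some intervals came close together. A neighbour within 100 kb was found for 25 of 95 intervals (26.3%, 17.8 to 36.4%), and the median distance to the nearest neighbour was 236 kb. The closest pair, separated by 205 bp on chromosome IV, had both intervals assigned to Y73B6A.1, with 406 and 390 tags per kb and folds of 2.54 and 3.11. Both intervals assigned to ZK993.4 on chromosome I were 4313 bp apart, with 350 and 332 tags per kb. The T20H12.1 interval (367 tags per kb) stood 47.4 kb from that of Y14H12A.1 on chromosome II. Median density by chromosome ran from 303 tags per kb on II (28 intervals) to 367 on X (9 intervals), and the ranges overlapped between all 6.

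Overlapping intervals can be read in the F14' table, which is labelled as set against the same control, so the folds share that library. Each density is over the width of its own interval. Tag counts were not scaled for depth. At F52G2.3 the F11 density was 4672 tags per kb and the F14' density 5382, at folds of 5.78 and 38.9. At Y14H12A.1 they were 1538 and 1461, with folds of 8.46 and 18.4. The region named C34E11.9 in F11 had 6594 and 5084 tags per kb, and is assigned to Y102F5A.1 in F14'. That of anr-53 had 5355 and 4999, and is assigned to fbxa-75. An F14' interval lay over 53 of the 95 F11 intervals (55.8%), with all 8 dense ones among them. The share was 22 of 26 from 350 to under 1000 tags per kb and 23 of 61 (37.7%) under 350. Over the 53, the ratio of F14' to F11 density had a median of 1.02, with quartiles of 0.943 and 1.15. It ran from 0.771 to 2.02, and F14' was the denser at 27 of the 53. Widths differed too, and the ratio of F14' to F11 width had a median of 1.11 (0.677 to 2.50). Only regions listed for both groups enter these ratios. By ratio, wider gaps were those of acd-5 (643 and 1298 tags per kb), the Y75D11A.1 locus (1660 and 2600) and irld-1 (827 and 1268). Both values of a region carry counting error, depth is not scaled and no replicate check exists, so no difference in density was tested. The densest F11 interval with no F14' interval over it was that of T26H5.8 (555 tags per kb), which was also the widest.

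**Figure D4:**
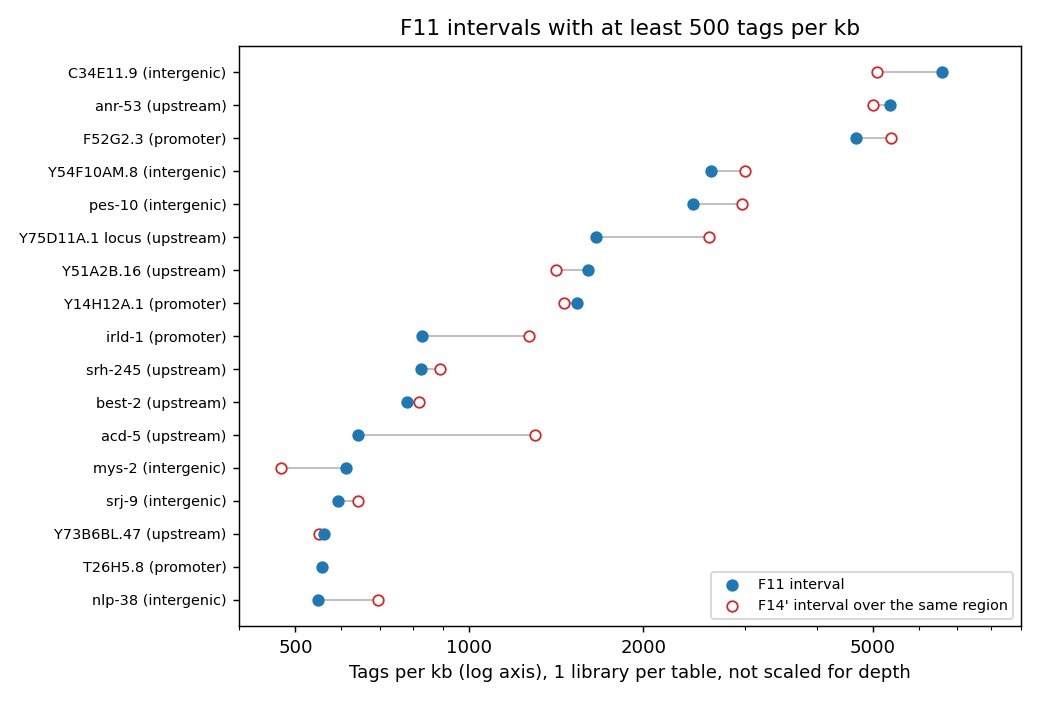
Tags per kb (log axis, 1 library per table, not scaled for depth) of the 17 F11 intervals with at least 500 tags per kb (filled) and of the F14' interval over the same region (open), named by the F11 gene and class. Each density is over the width of its own interval. T26H5.8 has no F14' interval, and acd-5 shows the widest gap, from 643 to 1298.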

How the data were processed

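Per the submitters' processing notes, Bowtie2 2.1.0, MACS 1.4.0rc2 and the build ce10 were used. Per the labels, fragments were of 200 to 800 bp, and each table is from 1 library. The authors deposited whole-number tag counts, a fold (ratio) over the caller's background, a score of -10 times log10 of p, an FDR in percent and an annotation. Other values were computed here: width, tags per kb, position along the assigned gene, and exact Clopper-Pearson and Poisson 95% intervals. The deposited distance equals that of the interval centre within 0.5 bp. No significance test was run, having 1 library a side. Gene names and types, and nothing else, came from RefSeq's table for WBcel235, which is a different build; matching went by accession, then symbol. Of 100 identifiers 96 matched. The naming rule took 57 intervals, by density (10), fold (10), p (10), width (5 widest, 5 narrowest) and distance (5 nearest, 5 farthest), with list members and intron or exon intervals. Any other interval in the text was picked with its values in view. The intervals and lists were chosen with earlier results of these data known. Promoter sequences and motifs were not analysed here. Software was matplotlib 3.10.9, scipy 1.17.1, pandas 2.3.3 and numpy 2.4.6 under Python 3.11.15, and the code was checked on planted intervals.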

Additional observations from a re-analysis of the deposited data

How the results depend on the processing

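Of 53 alternative values, 27 did not move beyond 1.5 times (for counts) or beyond the 95% interval of the reported value, and 26 did. Stricter limits leave fewer intervals by construction. A score of at least 100 left 27 intervals and 27 genes, with medians of 406 tags per kb, 3112 bp wide, 3131 bp from the start and a fold of 2.85. Promoter intervals then made up 29.6%, and intervals with a start 7.41%. A score of at least 50 left 51 intervals, with medians of 361 tags per kb, 2472 bp wide, 2898 bp from the start and a fold of 2.41. A fold of at least 2 also left 51, with medians of 367 tags per kb and a fold of 2.68. An FDR of at most 5% left 1 interval, C34E11.9, so its own values stand for the medians (6594 tags per kb, 4779 bp wide, 4102 bp from the start, fold 4.39) and 0% were promoter intervals. Counting centres within 1 kb of the assigned start as promoter gave 16.8%, and within 3 kb 64.2%. Neighbours within 50 kb numbered 12, and within 200 kb 40. The settings on intervals that hold a start were chosen after seeing the data. No paired analysis was possible because each group has 1 library. Depth outside the intervals is unknown, which limits every density to tags inside them.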
